A study of Mus musculus with 6 samples.

Results

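The 8 genes described here belong to the Ms4a family and were followed across the immune cells of healthy mouse brain and of early mouse glioma. They were taken by gene symbol from the annotation, as the 8 members Ms4a1, Ms4a4a, Ms4a4b, Ms4a4c, Ms4a6b, Ms4a6c, Ms4a6d and Ms4a7, out of 27378 gene IDs in the deposited table, which holds 15 Ms4a genes in all. The material was single-cell RNA sequencing (10x Genomics 3' v3 chemistry) of cells sorted for CD45, the pan-leukocyte surface protein, in 6 libraries, 2 per group. The groups were healthy brain, control gliomas in which Trp53 was deleted and Rbpj left intact, and gliomas lacking both Trp53 and Rbpj, the gene of the DNA-binding factor through which Notch receptors act. Both tumour groups share the Trp53 deletion, and no group lacks Rbpj alone. The tumours were early gliomas, recognised by the GFP of a Cre reporter and dissected, and whether the sorted immune cells themselves carried a deletion is not stated. The series design gives pools of 9 brains, 15 control tumours and 9 Rbpj-deleted tumours, whereas the extraction protocol describes the cells of 1 mouse in 1 well, and no label gives an age, a Cre driver or the animals behind each library. What a p-value here weighs is only how the libraries of a group vary, and that variation may be technical.

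Ms4a proteins cross the membrane several times and sit beside immune receptors at the cell surface. Ms4a1 encodes CD20, the B cell surface protein that therapeutic antibodies bind. Ms4a4b and Ms4a6b were described in T cells as partners of the costimulatory receptor Tnfrsf18, Ms4a4a as a macrophage protein that associates with the fungal receptor Clec7a, and Ms4a7 is widely used as a marker of macrophages at the borders of the brain, since microglia carry little of it.

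The 8 genes lie within 355 kb of chromosome 19 (mm10, 11249675 to 11604849). From the left they are Ms4a1 (11249675 to 11266241, minus strand), Ms4a7 (11321039 to 11336146, minus), Ms4a4a (11375523 to 11392790, plus), Ms4a4c (11404770 to 11427246, plus), Ms4a4b (11443553 to 11467055, plus), Ms4a6c (11469366 to 11482192, plus), Ms4a6b (11516512 to 11531256, plus) and Ms4a6d (11586604 to 11604849, minus). All 8 are protein-coding. Ms4a4b and Ms4a4c are neighbours on the same strand, and so are Ms4a6c and Ms4a6b. Promoter sequence was at hand for 6 of the 8 members (RefSeq, GRCm38.p6). The 250 bases before the start of those neighbours are shown because each pair shares promoter sequence while its members differ in some of the cells that carry them, as the levels further on give. Ms4a6b and Ms4a6c have the same class of highest mean, border macrophage-like cells, and part in T-like cells, where Ms4a6b is the higher. Capitals mark exact runs of at least 12 bases that both members of a pair share in the same order. The windows are chr19:11443308-11443557, chr19:11407411-11407660, chr19:11518309-11518558 and chr19:11469118-11469367, all on the plus strand, and RefSeq starts differ from the gene starts above for Ms4a4c and Ms4a6b.
Ms4a4b: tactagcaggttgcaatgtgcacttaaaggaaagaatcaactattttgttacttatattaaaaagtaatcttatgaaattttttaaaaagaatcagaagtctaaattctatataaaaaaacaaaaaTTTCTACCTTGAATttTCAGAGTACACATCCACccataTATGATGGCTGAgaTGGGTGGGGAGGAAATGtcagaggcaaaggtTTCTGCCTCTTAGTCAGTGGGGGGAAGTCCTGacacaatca
Ms4a4c: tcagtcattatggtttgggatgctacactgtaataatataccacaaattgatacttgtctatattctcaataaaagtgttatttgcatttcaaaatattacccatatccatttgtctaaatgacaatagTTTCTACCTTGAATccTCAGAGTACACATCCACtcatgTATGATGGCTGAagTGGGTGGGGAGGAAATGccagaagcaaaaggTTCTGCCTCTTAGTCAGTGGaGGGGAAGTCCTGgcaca
Ms4a6b: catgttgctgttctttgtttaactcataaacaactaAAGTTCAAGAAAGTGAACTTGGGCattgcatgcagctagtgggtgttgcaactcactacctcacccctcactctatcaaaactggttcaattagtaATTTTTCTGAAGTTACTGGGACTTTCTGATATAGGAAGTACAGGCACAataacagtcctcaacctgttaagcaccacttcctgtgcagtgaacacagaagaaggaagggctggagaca
Ms4a6c: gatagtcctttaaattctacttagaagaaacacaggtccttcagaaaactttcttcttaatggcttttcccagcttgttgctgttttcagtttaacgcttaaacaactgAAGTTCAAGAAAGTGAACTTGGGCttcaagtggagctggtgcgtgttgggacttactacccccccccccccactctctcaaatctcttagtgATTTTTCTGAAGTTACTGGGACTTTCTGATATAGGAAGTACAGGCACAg
Over a global alignment, Ms4a4b and Ms4a4c were identical at 182 of 259 columns (70.3%), with 6 shared runs that held 92 bases. Ms4a6b and Ms4a6c were identical at 136 of 266 columns (51.1%), within the range of the other pairs, yet they shared 1 unbroken run of 48 bases. Among the other 13 pairs of the 6 members identity was 46.4% to 51.5% and the longest shared run 7 to 9 bases. Among the motifs searched on both strands of the 250 bases were the core of the interferon-stimulated response element (a pair of GAAA, with 2 free bases between) and the PU.1 core GAGGAAGT. None of the 6 members with a promoter holds either of these, against 3.46% and 2.79% of 27025 genes, which says only that these letters are not in these windows.

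Sequence shared by the transcripts bears on the counts. Of the 31-base words in the transcripts of Ms4a6c, 58.1% also occur in transcripts of other genes, 1031 of them in BE692007, a gene on the opposite strand over the same region, and 281 in Ms4a6b. For Ms4a4c the share was 17.1%, with 227 words held in common with Ms4a4b. It was 8.11% for Ms4a6d, 7.9% for Ms4a6b, 5.47% for Ms4a4b, 2.34% for Ms4a1, 1.42% for Ms4a7 and 0% for Ms4a4a. The libraries are of 3' chemistry, so the ends of the transcripts matter most. Over the last 500 bases the share was 55.4% for Ms4a6c, 22.8% for Ms4a4c, 11.7% for Ms4a6b and 8.65% for Ms4a4b. It was 0% there for Ms4a1, Ms4a4a, Ms4a6d and Ms4a7. BE692007 itself had 0 to 5.4 CPM in border macrophage-like cells and 0 to 30.1 CPM in B-like cells. Gm8369, which shares 88 words with Ms4a4b and 12 with Ms4a4c, had 59 to 122 CPM in T-like and 60 to 323 CPM in B-like cells. The sources used here do not say how counting treated reads that match more than 1 gene, so levels of Ms4a6c, and to a lesser degree of Ms4a4c, are uncertain by that sharing.

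After filtering, 13977 of 17362 barcodes were kept as cells. The libraries held 17430763 to 55229031 counts of unique molecular identifiers (UMIs, 1 per captured RNA molecule), and the kept cells had medians of 5137 to 9791 UMIs. A UMI of Ptprc, the gene of the sorted protein CD45, was read in 63% to 90.5% of the kept cells of a library. Cells were grouped into 25 clusters that were named from marker genes, with the ending "-like" because RNA alone names them, and levels are CPM, the count scaled to a fixed total, of the summed UMIs of a class in a library. Microglia-like cells carried microglial markers at a summed 16827 to 30594 CPM. The healthy microglia-like cells of replicate 1 sat mostly in clusters led by Gm26802 and Slc2a5 (58% and 32.3%) and those of replicate 2 in a cluster led by Hspb1 (87.8%), so the healthy libraries stand apart from each other. In the tumours 38.5% to 68.9% of microglia-like cells fell in a cluster led by Il1a, Csf1, Egr3 and Tnf, against 0.085% and 0.668% in healthy brain. Border macrophage-like cells were in clusters led by Lyve1 and Retnla in healthy brain, whereas 53.3% to 85% of them in the tumours lay in a cluster led by Ccl8, which held 0% of the healthy ones and none of the border markers among its 10 leading genes. Summed border markers were 16942 and 17634 CPM in healthy border macrophage-like cells, and 3564 to 6334 CPM in the tumours. Border cells in another state and other macrophages that took up part of that programme cannot be told apart in that cluster. Barcode sequences found in more than 1 library numbered 119 before filtering.

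The members differed in the classes that held them, and these levels are given as a description. Barcodes with RNA of 2 lineages had been removed, among them 771 with microglial and border markers and 714 with B cell and macrophage markers. Low levels outside the main class of a member may in part be set by that filter, which was not tested. Levels were summed in 8 immune classes only, not in clusters of other cell types or in unnamed clusters. Ms4a1 was read in B-like cells at 221 and 499 CPM in healthy replicates 1 and 2, 475 CPM in control replicate 1, and 192 and 94.4 CPM in Rbpj-deleted replicates 1 and 2. Control replicate 2 had too few B-like cells to be used. Outside B-like cells it had 0 UMIs in every class and library apart from 2 UMIs in border macrophage-like cells of Rbpj-deleted replicate 2. In microglia-like cells of healthy replicate 1 a count of 0 allows at most 3 UMIs, or 0.098 CPM, by counting error alone. The 3 genes whose levels followed Ms4a1 most closely over 44 class and library sums were Fcmr, Klhl14 and Pax5 (Pearson r of log2 CPM 0.982 to 0.985), of which Fcmr and Pax5 are B cell genes that lead the cluster forming this class.

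**Figure D1:**
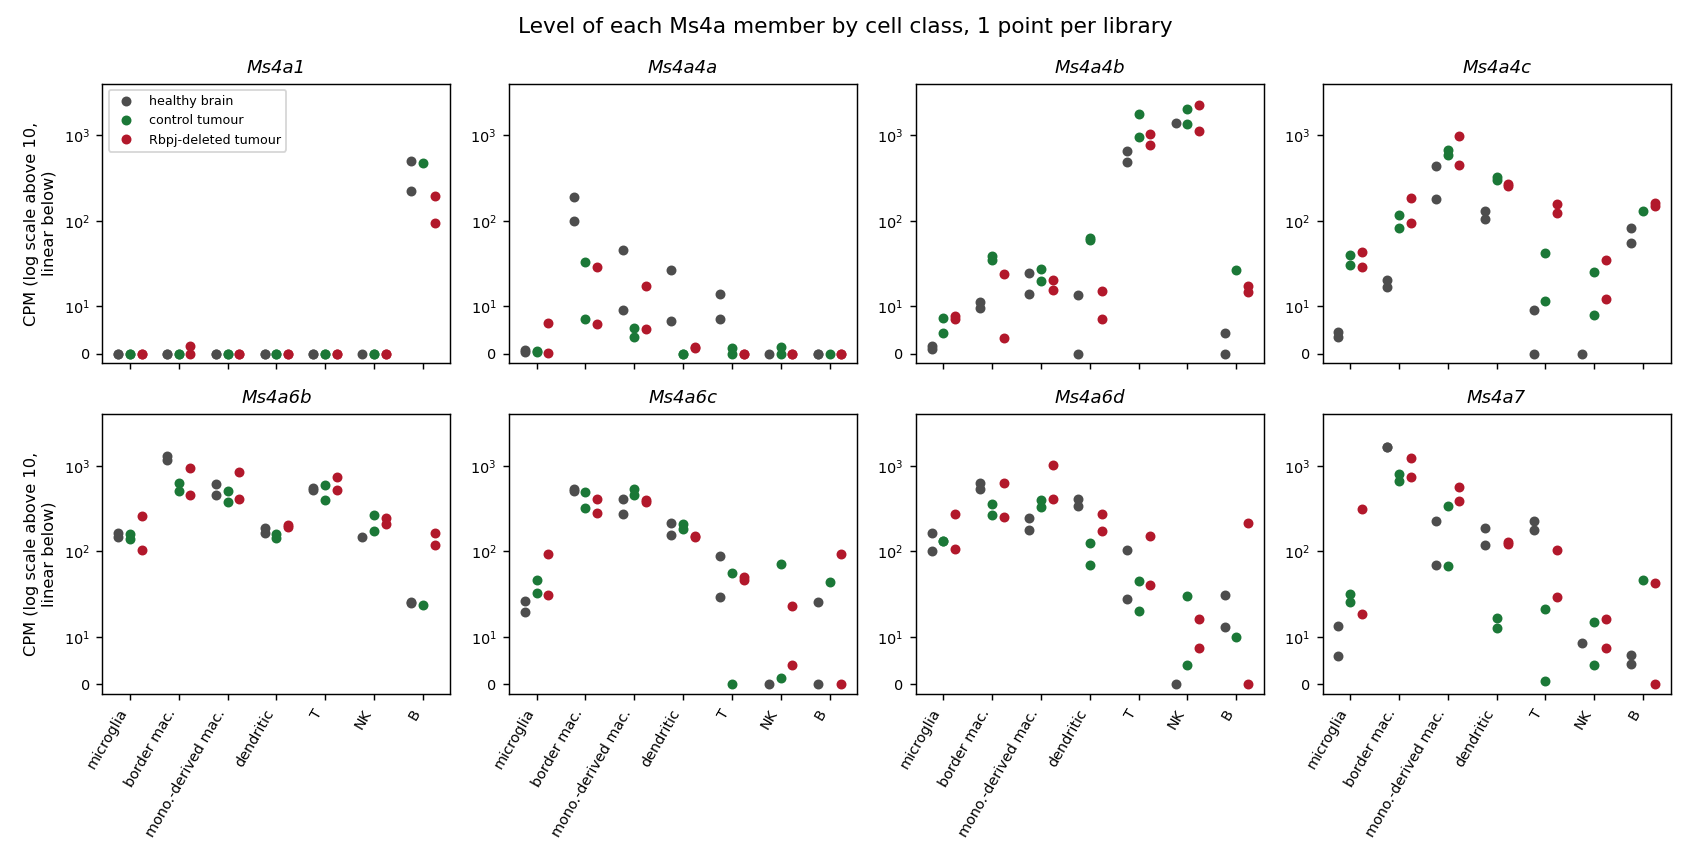
CPM of the 8 members by cell class, with 1 point per library (grey healthy, green control tumour, red Rbpj-deleted tumour) and an axis that is linear below 10 and logarithmic above. Class names are shortened and rest on RNA markers. Ms4a1 stands in B-like cells, Ms4a4b in T-like and NK-like cells, and Ms4a7 in border macrophage-like cells.

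Ms4a4b was read mainly in NK-like and T-like cells. In NK-like cells it was read at 1391 CPM in healthy replicate 2, 2019 and 1348 CPM in control replicates 1 and 2, and 2259 and 1103 CPM in Rbpj-deleted replicates 1 and 2. In T-like cells the values were 657 and 484 CPM in healthy brain, 960 and 1745 CPM in control tumours, and 1027 and 770.1 CPM in Rbpj-deleted tumours. The ranges of these 2 classes overlapped, and every other class stayed at or below 63.3 CPM. Among T-like cells with a Cd8a or Cd8b1 UMI and no Cd4 UMI, Ms4a4b was at 1213 and 1799 CPM in control and 1277 and 870.5 CPM in Rbpj-deleted tumours. T-like cells with the opposite pattern had 429.9 CPM in control replicate 1, and 698 and 1084 CPM in Rbpj-deleted replicates 1 and 2. CD8-type cells were thus the higher in 2 of the 3 libraries where both could be measured, and the lower in Rbpj-deleted replicate 2. The genes most like Ms4a4b were Lck, Il2rb and Nkg7 (r = 0.913 to 0.917), which encode a T cell receptor kinase, a cytokine receptor chain and a granule protein of cytotoxic cells.

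Ms4a6b was read in every class and library. Border macrophage-like cells held 1161 and 1304 CPM of it in healthy brain, 623 and 514 CPM in control and 450 and 940.2 CPM in Rbpj-deleted tumours. T-like cells had 402 to 742 CPM, monocyte-derived macrophage-like cells 376 to 839 CPM, plasmacytoid dendritic-like cells 89.1 to 450.4 CPM in 4 libraries, NK-like cells 149 to 263 CPM, dendritic-like cells 141 to 202 CPM and microglia-like cells 104 to 256 CPM. B-like cells, at 23.4 to 163 CPM, had the lowest mean. Each class overlapped the next one in this order of means, while monocyte-derived macrophage-like cells lay above NK-like cells in every library of both. Its neighbour Ms4a6c was a myeloid gene, at 280.3 to 535 CPM in border macrophage-like and 273 to 530.5 CPM in monocyte-derived macrophage-like cells. These ranges overlapped each other, and both lay above dendritic-like cells at 146 to 212 CPM. In T-like cells Ms4a6c stood at 0 to 87.5 CPM. Ms4a6c was most like Lyz2, Ifi207 and Pla2g7 (r = 0.896 to 0.91), led by the macrophage lysozyme gene.

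Ms4a6d was highest in border macrophage-like cells in 2 libraries and in monocyte-derived macrophage-like cells in 4. In healthy replicates 1 and 2 dendritic-like cells held 408 and 337 CPM, above monocyte-derived macrophage-like cells at 176 and 247 CPM. Plasmacytoid dendritic-like cells had 71.3 to 501 CPM in 4 libraries. Ms4a6d was also the member, with Ms4a6b, that microglia-like cells held in every library at over 100 CPM (102 to 270.3 CPM for Ms4a6d). Rab32, Tgfbi and Vamp8 were most like it (r = 0.884 to 0.895), and among the members Ms4a6c was the closest to Ms4a6d (r = 0.831).

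Ms4a7 separated border macrophage-like cells from every other class that was summed, after the removal of mixed barcodes. Their levels were 1670.3 and 1636 CPM in healthy replicates 1 and 2, 796 and 659 CPM in control, and 741 and 1239.8 CPM in Rbpj-deleted tumours, and the next classes, monocyte-derived macrophage-like and plasmacytoid dendritic-like cells, reached 568 and 577 CPM. Border macrophage-like cells were the highest class in 6 of 6 libraries. Microglia-like cells of healthy brain had 13.2 and 5.96 CPM. Sash1, Mrc1 and Gpx3 followed Ms4a7 most closely (r = 0.876 to 0.889), and Mrc1, the mannose receptor gene, was among the markers that named the class. Ms4a4a had the same first class, with 99.4 and 191 CPM in healthy border macrophage-like cells, with F13a1, Lyve1 and Cbr2 most like it (r = 0.862 to 0.908), all 3 used as border markers. It was also highest there in 6 of 6 libraries, but its ranges overlapped those of monocyte-derived macrophage-like cells. The correlations are over sums that share libraries and cell classes, and are descriptions.

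Ms4a4c, the neighbour of Ms4a4b, had its highest levels in monocyte-derived macrophage-like cells. Those cells held 181 and 433 CPM in healthy replicates 1 and 2, 586 and 672 CPM in control and 452 and 970.1 CPM in Rbpj-deleted tumours. That class was the highest in 6 of 6 libraries, followed by dendritic-like cells at 105 to 326 CPM, with overlapping ranges. In NK-like cells, where Ms4a4b was highest in 4 of 5 libraries, Ms4a4c did not exceed 34.7 CPM. T-like cells, the other class with much Ms4a4b, held 0 to 159 CPM of Ms4a4c. B-like cells had 55.4 to 163 CPM of it, and plasmacytoid dendritic-like cells 17.8 to 317 CPM in 4 libraries. The level of Ms4a4c was most like those of the class II antigen presentation genes H2-Aa, H2-Ab1 and Cd74 (r = 0.82 to 0.846).

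The study compared the tumour groups with healthy brain and with each other. Sums per library and class were tested with edgeR's quasi-likelihood test, with Benjamini-Hochberg adjustment over all genes tested in a class, and a gene was called at an adjusted p of 0.05 or less. Both tumour contrasts use the same 2 healthy libraries, so each is given with its own values. Shares of all genes are at the adjusted threshold. Counts of members at an unadjusted p under 0.05, and counts called by DESeq2, an alternative test, have no share of their own beside them. Nothing is read from either kind of count. A summed level cannot tell fewer carrying cells from less RNA in each.

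Ms4a4c rose in microglia-like cells of both tumour groups. It stood at 4.55 and 3.49 CPM in healthy replicates 1 and 2, at 30.04 and 39.8 CPM in control tumours, and at 28.9 and 43.5 CPM in Rbpj-deleted tumours. All 4 tumour libraries lay above both healthy ones, and the tumour groups overlapped each other. The log2 change was 3.19 ± 0.29 (SE, edgeR adjusted p = 4.6e-05) for control tumours and 3.32 ± 0.28 (edgeR adjusted p = 1.6e-05) for Rbpj-deleted tumours, and both calls held under DESeq2, without each library in turn and with a batch term (3.03 and 3.56). The batch term sets each tumour group beside 1 healthy library alone, so it is no check apart from leaving libraries out. The difference of Ms4a4c between the tumour groups was 0.13 ± 0.27 (edgeR adjusted p = 0.88). After thinning each cell to 2000 UMIs, 0.689% and 0.747% of healthy microglia-like cells had an Ms4a4c UMI, against 5.86% and 7.1% in control and 5.33% and 6.64% in Rbpj-deleted tumours. Without thinning the shares were 2.57% and 1.7%, 17.2% and 25.3%, and 16.3% and 19.5%. NK-like cells had median depths of 3232.5 to 8124 UMIs, against 5286 to 9499 UMIs in microglia-like cells. In them 0% to 5% of thinned cells had an Ms4a4c UMI. The tumour shares lie only just above the highest of these. Before thinning the NK-like libraries held 18 to 115 cells, against 166 to 986 microglia-like cells in the tumours, so the NK-like shares are coarse.

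The rise of Ms4a4c went with the cluster led by Il1a, Csf1, Egr3 and Tnf. In that cluster Ms4a4c was at 59.8 and 61.7 CPM in control replicates 1 and 2 and at 33.7 and 75.4 CPM in Rbpj-deleted ones, and at 183 CPM in the 11 such cells of healthy replicate 2, from 10 UMIs. In the cluster led by Gm13889 it was at 0 and 4.1 CPM in healthy brain, 3.77 and 19.6 CPM in control and 13.1 and 9.95 CPM in Rbpj-deleted tumours. Without the Il1a-led cluster the log2 change was 1.56 (edgeR adjusted p = 0.552) for control and 2.33 (edgeR adjusted p = 0.0355) for Rbpj-deleted tumours, so the call for control tumours rests on it. Markers of monocyte-derived macrophages, the class in which Ms4a4c is highest, were also higher in the tumours: their summed level in microglia-like cells was 16.1 and 26.8 CPM in healthy brain, 101 and 82.2 CPM in control and 98.9 and 123 CPM in Rbpj-deleted tumours. Of the 12 markers 8 to 12 were read, and Chil3 was at 0 in 3 of the 4 tumour libraries. Their part in the result was not tested.

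Ms4a4c also rose in border macrophage-like cells, from 16.9 and 20.5 CPM in healthy replicates 1 and 2 to 82.4 and 116 CPM in control and 94.1 and 184 CPM in Rbpj-deleted tumours. No tumour library overlapped the healthy range. The log2 change was 2.61 ± 0.38 (edgeR adjusted p = 0.0033) and 3.11 ± 0.37 (edgeR adjusted p = 0.00094). Within the Lyve1-led cluster the gene was at 17.02 and 21.3 CPM in healthy brain, 22.8 CPM in control replicate 1 and 15.6 and 45 CPM in Rbpj-deleted tumours, from 5 to 50 UMIs. In the Ccl8-led cluster it was at 106 and 125 CPM in control and 101 and 252 CPM in Rbpj-deleted tumours. Without that cluster Ms4a4c fell below the filter on low counts and was not tested, so neither call can be made without the Ccl8-led cells. Summed monocyte markers in border macrophage-like cells were 69.5 and 154 CPM in healthy brain, 504 and 217 CPM in control, and 298 and 248 CPM in Rbpj-deleted tumours, with 9 to 12 of 12 read. Their part in the result was not tested.

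**Figure D2:**
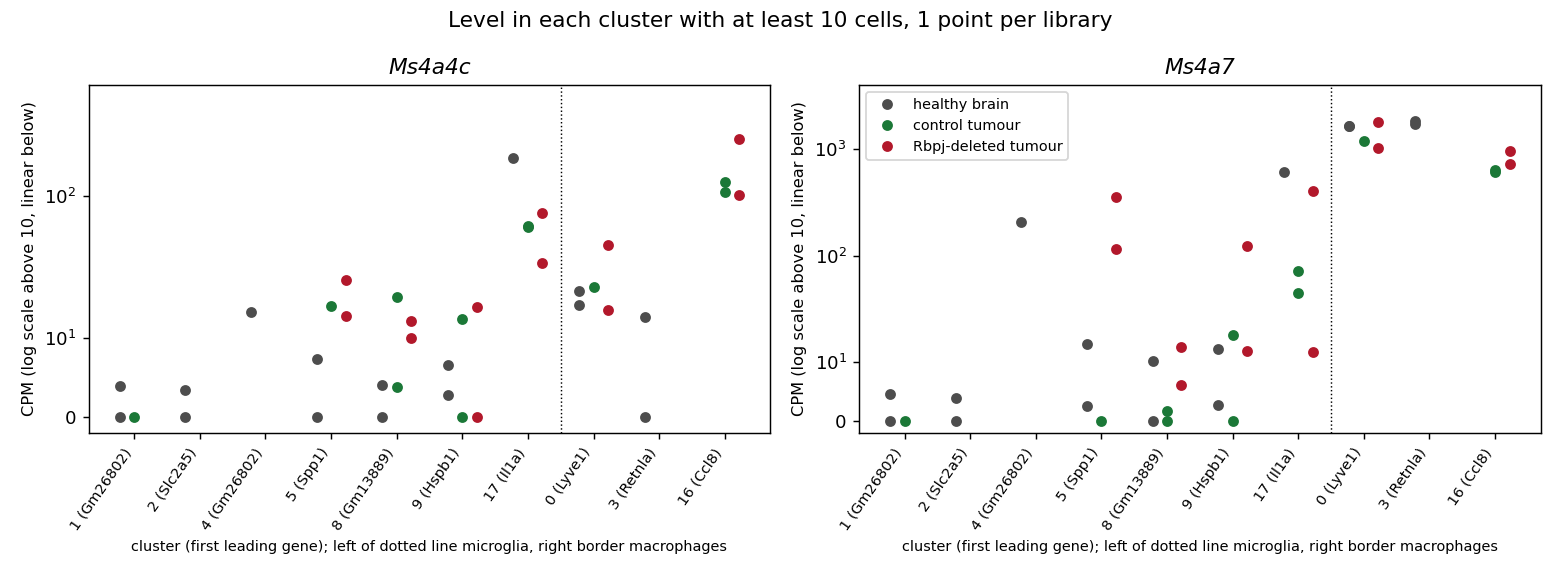
CPM of Ms4a4c (left) and Ms4a7 (right) in each cluster of microglia-like and border macrophage-like cells with at least 10 cells, 1 point per library, on an axis that is linear below 10 and logarithmic above. Clusters are named by number and first leading gene, microglia-like to the left of the dotted line and border macrophage-like to its right. Ms4a4c is highest in the Il1a-led and Ccl8-led clusters, and Ms4a7 in the Lyve1-led and Retnla-led ones.

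Fewer calls were made for the other members. In microglia-like cells 2 of the 6 members tested were called against healthy brain in each tumour contrast, where 3.44% and 11.1% of all genes were called for control and Rbpj-deleted tumours. The second was Ms4a4b, from 1.67 and 0.917 CPM in healthy brain to 4.29 and 7.56 CPM in control and 7.98 and 7.35 CPM in Rbpj-deleted tumours (log2 change 2.2 ± 0.5, edgeR adjusted p = 0.031, and 2.7 ± 0.45, edgeR adjusted p = 0.0028). All 4 tumour libraries lay above both healthy ones and the tumour groups overlapped each other, but the levels rest on 10 to 75 UMIs a library. Summed T cell markers in the same cells were 14.2 and 11.9 CPM in healthy brain, 28.1 and 37.8 CPM in control and 48.1 and 45 CPM in Rbpj-deleted tumours, with 11 or 12 of 12 read, and their part in the result was not tested. These calls rest on the removal of barcodes that carry RNA of another lineage: with all such barcodes kept the changes were 0.12 and -0.71 (edgeR adjusted p = 0.968 and 0.586), and neither call was made. With such barcodes removed at a higher level the call for Rbpj-deleted tumours was lost (1.68, edgeR adjusted p = 0.0549), as was that for control tumours (1.25, edgeR adjusted p = 0.307). Without the Il1a-led cluster neither call was made (1.72 and 2.04, edgeR adjusted p = 0.694 and 0.113). For control tumours the call was also lost without control replicate 1 or 2 (2.59 and 1.74, edgeR adjusted p = 0.0786 and 0.34), without healthy replicate 2 (1.89, edgeR adjusted p = 0.0666), without Rbpj-deleted replicate 1 (2.22, edgeR adjusted p = 0.0538) and with the batch term (1.9, edgeR adjusted p = 0.0946). Ms4a6b, Ms4a6c and Ms4a6d were not called, with changes of 0.07 to 0.9 for control and 0.41 to 1.59 for Rbpj-deleted tumours on the log2 scale.

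Ms4a7 differed between the Rbpj-deleted libraries themselves. Microglia-like cells had 32 and 25.7 CPM in control tumours, 18.6 CPM in Rbpj-deleted replicate 1 and 313 CPM in replicate 2. The change against healthy brain was 4.23 ± 1.67 on the log2 scale (edgeR adjusted p = 0.248), and without Rbpj-deleted replicate 2 it was 1.12, whereas without replicate 1 it was 5.13 (edgeR adjusted p = 0.00384). Summed border markers in microglia-like cells were likewise 113 CPM in Rbpj-deleted replicate 1 and 469 CPM in replicate 2, with 12 of 12 read in both. The Spp1-led cluster held 6.9% and 31% of the microglia-like cells of these libraries, with Ms4a7 at 115 and 352 CPM in it. The Il1a-led cluster held 68.9% and 38.5% of them, with Ms4a7 at 12.5 and 404 CPM, and gave 547 of the 1022 Ms4a7 UMIs of replicate 2. In healthy replicate 1 the cells led by Gm26802 with the interferon genes Ifit3 and Mx2 carried 207 CPM of Ms4a7, against 13.2 CPM over all its microglia-like cells. The split of the Rbpj-deleted libraries was not particular to Ms4a7. From replicate 1 to 2, microglia-like cells went from 104 to 256 CPM of Ms4a6b, 107 to 270 CPM of Ms4a6d and 31.1 to 93.4 CPM of Ms4a6c. Ms4a4c went from 28.9 to 43.5 CPM and Ms4a4a from 0.106 to 6.43 CPM, whereas Ms4a4b, at 7.98 and 7.35 CPM, did not rise. The cause of this difference between libraries was not tested.

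In border macrophage-like cells 1 of 7 members tested was called in each contrast with healthy brain, Ms4a4c, where 5.3% and 6.98% of all genes were called. Ms4a7 was lower in all 4 tumour libraries than in both healthy ones, and its change was -0.98 ± 0.31 (edgeR adjusted p = 0.11) for control and -0.52 ± 0.31 (edgeR adjusted p = 0.41) for Rbpj-deleted tumours. Ms4a6b gave -0.92 ± 0.36 and -0.6 ± 0.35, neither of them called (edgeR adjusted p = 0.2 and 0.39). Ms4a4a stood at 33 and 7.28 CPM in control and 6.3 and 28.8 CPM in Rbpj-deleted tumours, below both healthy libraries, with changes of -2.58 ± 1.03 and -3.08 ± 0.99 that were not called (edgeR adjusted p = 0.31 and 0.19). In the Lyve1-led cluster alone Ms4a7 was at 1662 and 1634 CPM in healthy brain, 1201 CPM in control replicate 1, and 1022 and 1781 CPM in Rbpj-deleted tumours. In the Ccl8-led cluster it was at 642 and 609.6 CPM in control and 716 and 961 CPM in Rbpj-deleted tumours. For Ms4a4a the Ccl8-led cluster had 4.48 to 11 CPM, and the Lyve1-led one 26.1 to 86.8 CPM in the tumours.

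**Figure D3:**
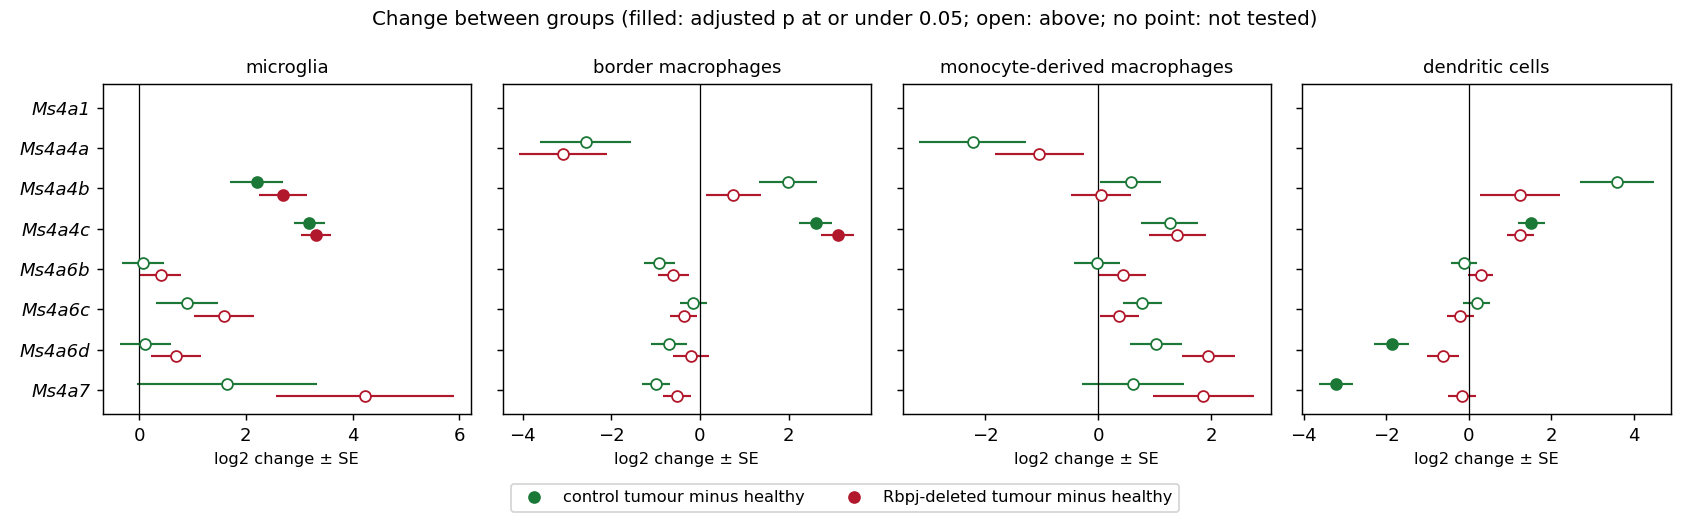
Log2 change ± SE (edgeR) of each member against healthy brain in 4 classes, green for control and red for Rbpj-deleted tumours. Filled points were called at an adjusted p of 0.05 or less, open ones were not, and members without a point were not tested. Ms4a4c lies to the right of 0 in all 4 classes and is filled for both contrasts in microglia-like and border macrophage-like cells.

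Whether a contrast differed between border macrophage-like and microglia-like cells was tested with limma on the difference of log2 CPM within each library. None of the 6 members tested was called in any of the 3 contrasts, where 0.15%, 0.588% and 0% of all genes were called for control against healthy, Rbpj-deleted against healthy and Rbpj-deleted against control. At an unadjusted p under 0.05 there were 4, 5 and 1 members. The share of all genes at that threshold is not given, so no difference is read from these counts. The difference for Ms4a7 was -2.75 ± 1.05 (limma adjusted p = 0.33) for control and -3.82 ± 1.05 (limma adjusted p = 0.19) for Rbpj-deleted tumours, and for Ms4a6c -1.06 ± 0.38 and -1.81 ± 0.38 (limma adjusted p = 0.31 and 0.13). For Ms4a4c the differences were -0.62 ± 0.3 and -0.3 ± 0.3 (limma adjusted p = 0.42 and 0.71).

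In dendritic-like cells Ms4a7 and Ms4a6d fell in control tumours while Ms4a4c rose. Ms4a7 stood at 119 and 187 CPM in healthy replicates 1 and 2, 16.7 and 12.6 CPM in control and 129.6 and 123 CPM in Rbpj-deleted tumours. The control libraries lay below all others. The log2 change was -3.22 ± 0.41 (edgeR adjusted p = 0.0036) for control against healthy, -0.17 ± 0.34 (edgeR adjusted p = 0.92) for Rbpj-deleted against healthy and 3.05 ± 0.4 (edgeR adjusted p = 0.044) for Rbpj-deleted against control. The last was the only call of a member between the tumour groups in any class, in a contrast in which 0.0273% of all genes were called. It was lost without either Rbpj-deleted library (edgeR adjusted p = 0.129 and 0.177), with the batch term (2.31, edgeR adjusted p = 0.737), and with mixed barcodes kept (1.76, edgeR adjusted p = 0.409) or removed at a higher level (2.61, edgeR adjusted p = 0.303). The class joins a cluster led by Cd209a and one led by Ccl22 and Ccr7, the receptor that guides dendritic cells to lymph nodes. The Cd209a-led cluster held 54 of 58 and 32 of 33 dendritic-like cells in healthy brain, 40 of 65 and 11 of 16 in control and 92 of 160 and 47 of 79 in Rbpj-deleted tumours. The makeup of the class thus differed between healthy brain and the tumours, and its part in the changes of this class was not tested. In the Cd209a-led cluster Ms4a7 was at 122 and 192 CPM in healthy brain, 7.3 and 13 CPM in control and 55 and 18.2 CPM in Rbpj-deleted tumours. In the Ccl22-led cluster it was at 41.1 CPM in control replicate 1 and at 219 and 246 CPM in Rbpj-deleted replicates 1 and 2. Summed border markers in dendritic-like cells were 1936 and 2299 CPM in healthy brain, 184 and 199 CPM in control and 624 and 506 CPM in Rbpj-deleted tumours, with 6 to 12 of 12 read, and their part in the result was not tested.

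Ms4a6d in dendritic-like cells went from 408 and 337 CPM in healthy brain to 68.5 and 126 CPM in control tumours, a log2 change of -1.87 ± 0.42 (edgeR adjusted p = 0.041), and stood at 171 and 273 CPM in Rbpj-deleted tumours (-0.63 ± 0.39, edgeR adjusted p = 0.63). Ms4a4c went from 129.8 and 105 CPM to 326 and 296 CPM in control (1.51 ± 0.33, edgeR adjusted p = 0.038) and to 265 and 252 CPM in Rbpj-deleted tumours (1.25 ± 0.33, edgeR adjusted p = 0.092). In all, 3 of 6 members were called for control tumours, where 2.46% of all genes were, and 0 of 6 for Rbpj-deleted tumours against healthy brain by edgeR and by DESeq2, where 1.88% were, with 1 member at an unadjusted p under 0.05. Control replicate 2 had 16 dendritic-like cells. Ms4a6d and Ms4a4c lost their calls for control tumours without healthy replicate 1 (edgeR adjusted p = 0.149 and 0.203), without healthy replicate 2 (edgeR adjusted p = 0.119 and 0.281), without control replicate 1 (edgeR adjusted p = 0.188 and 0.0964) and with the batch term (edgeR adjusted p = 0.142 and 0.276). Ms4a4c also lost its call without Rbpj-deleted replicate 1 (edgeR adjusted p = 0.0533). The call of Ms4a7 held without each of the 6 libraries in turn and with the batch term (-2.81, edgeR adjusted p = 0.0274). Ms4a4b stood at 63.3 and 60.3 CPM in control and 0 to 15.2 CPM in the other groups (3.59 ± 0.89 against healthy, edgeR adjusted p = 0.091), beside summed T cell markers of 170 and 309 CPM in control, 6.69 and 15 CPM in healthy and 57.8 and 90.9 CPM in Rbpj-deleted tumours, whose part was not tested.

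Monocyte-derived macrophage-like cells gave no call by edgeR. Of 7 members tested 0 were called for control and 0 for Rbpj-deleted tumours against healthy brain, where 2.63% and 1.81% of all genes were, with 4 and 2 members at an unadjusted p under 0.05 and 0 and 1 by DESeq2. These shares are from edgeR, and none is given for DESeq2. Ms4a6d came nearest, at 176 and 247 CPM in healthy brain, 395 and 331 CPM in control and 407 and 1014 CPM in Rbpj-deleted tumours (1.95 ± 0.46 for the latter, edgeR adjusted p = 0.062). Both tumour groups lay above healthy brain, whose libraries had only 16 and 24 such cells and summed microglial markers of 16992 and 5780 CPM, against 958 to 4659 CPM in the tumours. Ms4a4c gave 1.27 ± 0.5 and 1.4 ± 0.5 (edgeR adjusted p = 0.22 and 0.23), with every tumour library above the healthy ones.

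In T-like cells 0 of 6 members were called by edgeR in each contrast with healthy brain, where 5.84% and 0.864% of all genes were called for control and Rbpj-deleted tumours, with 2 and 1 members at an unadjusted p under 0.05 and 2 and 1 by DESeq2. Here too the shares are from edgeR, and none is given for DESeq2. The healthy T-like class was mixed, with 21 and 23 cells. It held mast cell and basophil markers at a summed 2059 and 1161 CPM and border markers at 3948 and 2391 CPM, against at most 451 and 99.9 CPM in the tumours, and Ms4a2, the beta chain of the IgE receptor of mast cells, at 51.7 and 194 CPM. Ms4a4b gave 1.43 ± 0.38 (edgeR adjusted p = 0.058) for control tumours and 0.73 ± 0.37 (edgeR adjusted p = 0.36) for Rbpj-deleted ones. Ms4a4c was at 42 and 11.6 CPM in control and at 123 and 159 CPM in Rbpj-deleted tumours, which did not overlap, but the difference of 2.28 ± 0.52 was not called (edgeR adjusted p = 0.245). In that contrast 0 of 6 members were called by edgeR and by DESeq2, 1 had an unadjusted p under 0.05, and 0.144% of all genes were called.

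Between the tumour groups 0 members were called by edgeR or DESeq2 in microglia-like (0 of 6, with 0.0364% of all genes called), border macrophage-like (0 of 7, 0.0339%), monocyte-derived macrophage-like (0 of 7, 0.222%) and NK-like cells (0 of 3, 0.397%), and none had an unadjusted p under 0.05 there. In B-like cells only Rbpj-deleted tumours could be set against healthy brain, and 0 of 5 members were called by edgeR or DESeq2, where 0.101% of all genes were, with 3 at an unadjusted p under 0.05. Ms4a1 had a change of -1.44 ± 0.56 (edgeR adjusted p = 0.71), from 10 and 26 B-like cells in the Rbpj-deleted libraries.

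Among the relatives of the members, the table held 7 more Ms4a genes and the related Tmem176a and Tmem176b. Of these Tmem176a, which encodes a related membrane protein of myeloid cells, rose in border macrophage-like cells of Rbpj-deleted tumours (1.09 ± 0.29, edgeR adjusted p = 0.046) and Ms4a14 fell there (-1.28 ± 0.33, edgeR adjusted p = 0.038). Of the 3 relatives tested there 1 rose and 1 fell, where 6.98% of all genes were called. In microglia-like cells 2 of these relatives were tested, and neither was called by edgeR against healthy brain (lowest unadjusted p = 0.136). Of all genes 3.44% and 11.1% were called there for control and Rbpj-deleted tumours. Ms4a2, Tmem176a and Tmem176b fell in T-like cells of control tumours against the mixed healthy class (Ms4a2 by -8.43 ± 0.88, edgeR adjusted p = 0.0021). They were all 3 of the relatives tested there, where 5.84% of all genes were called.

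Of 9 genes whose proteins are described as partners of Ms4a proteins, 7 were tested in microglia-like cells, where 3.44% and 11.1% of all genes were called for control and Rbpj-deleted tumours. Of these 7, 2 rose in control tumours, Clec7a (2.27 ± 0.3, edgeR adjusted p = 0.002) and Cd40 (4.3 ± 0.64, edgeR adjusted p = 0.0024), and 3 in Rbpj-deleted tumours, Cd40 (5.83 ± 0.56), Clec7a (3.7 ± 0.31) and Tyrobp (0.78 ± 0.21), with none falling. In border macrophage-like cells Cd40, the receptor through which T cells activate antigen-presenting cells, rose in control (2.07 ± 0.35, edgeR adjusted p = 0.0054) and Rbpj-deleted tumours (2.5 ± 0.33, edgeR adjusted p = 0.001), and Cd79b in the latter, 1 and 2 of 7 tested where 5.3% and 6.98% of all genes were called. Of the 3 lists the interferon response held the most calls: 15 and 16 of 18 rose in microglia-like cells of control and Rbpj-deleted tumours and 0 fell, beside the 3.44% and 11.1% of all genes called, with median changes of 3.23 and 2.97 against -0.02 over all genes in each. In border macrophage-like cells, beside 5.3% and 6.98% of all genes, 12 and 10 of 18 rose and 0 fell, with medians of 2.99 and 2.58. Ifi204, a DNA sensor, rose by 4.6 ± 0.26 and 4.69 ± 0.26 in microglia-like cells (edgeR adjusted p = 1.4e-06 and 1.8e-06). These lists were chosen with earlier results of these data known and support no pattern by themselves.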

How the data were processed

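The authors deposited 1 table of counts per gene and cell barcode, whole numbers taken here as UMI counts, and per the submitters' processing notes kallisto 0.46.0, bustools 0.39.3 and the build mm10 were used. The cell filter behind the deposited barcodes and the strand setting are not given in the sources used here. From 17362 barcodes, 17 failed a filter (fewer than 500 genes read, or over 10% of counts mitochondrial), 256 were removed as copies of a barcode with at least 10 times the counts in another library, and 3112 as mixed, since they carried at least 3 UMIs and at least 5% of the level of a second lineage (20% between microglia and border macrophages). These mixed barcodes include doublets, and no other doublet caller was run. The rules for mixed barcodes and cluster names were set after the data had been seen.

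The remaining 13977 cells were clustered with scanpy 1.11.5 (2000 variable genes without Ms4a genes, 30 principal components, 20 neighbours, Leiden resolution 1), and 5 of 25 clusters stayed unnamed. Counts were summed per library and class, with at least 10 cells, and tested with edgeR 4.0.16 in R 4.3.3 (TMM, filterByExpr, robust quasi-likelihood, group as the factor), checked on simulated data. DESeq2 1.42.0 was an alternative and limma 3.58.1 tested differences between classes with a prior count of 2 on the log2 CPM scale. NK-like and B-like fits used the 5 libraries with enough cells. Named are the 8 members, the 3 genes most like each (Pearson correlation of log2 CPM plus 1, among genes at 20 CPM or more in at least 2 sums) and the called genes of 3 lists: relatives, partners and the interferon response. The members and lists were chosen with earlier results of these data known. A few results are not reported here.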

Additional observations from a re-analysis of the deposited data

Results flagged for a closer look

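In control tumours against healthy brain, Ms4a6d was higher in both control libraries in monocyte-derived macrophage-like cells and lower in both in dendritic-like cells, and the changes lay 2.9 apart on the log2 scale (1.03 ± 0.46 against -1.87 ± 0.42). Ms4a7 was higher in both control libraries in microglia-like cells and lower in both in dendritic-like cells, 4.87 apart on the log2 scale (1.65 ± 1.68 against -3.22 ± 0.41). Neither difference was tested. Both were picked from these same values, over all members, contrasts and pairs of classes other than border macrophage-like with microglia-like cells. The rule asked for groups that do not overlap, in opposite directions, with a call in either class. The share of all genes that meet it is not given. The rises themselves were not called (edgeR adjusted p = 0.27 for Ms4a6d and 0.75 for Ms4a7).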

How the results depend on the processing

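The 122 changes of a member in a class were recomputed in 1768 alternatives, of which 100 gave the other sign. For called changes 125 values kept direction and call, 34 kept the direction without the call and 1 turned (Ms4a4b in microglia-like cells of Rbpj-deleted tumours against healthy brain, -0.71 with mixed barcodes kept). For changes not called, 72 alternatives gave a call. Named changes that turned without a call were Ms4a4b in T-like cells of Rbpj-deleted tumours against healthy brain (-0.65 with mixed barcodes kept and -0.38 with them removed at a higher level), Ms4a4c in T-like cells between the tumour groups (-3.87 with the batch term) and Ms4a6b in B-like cells (-0.19 with mixed barcodes kept). The batch term was a library split found in earlier results of these data, with healthy replicate 1 beside the control and healthy replicate 2 beside the Rbpj-deleted libraries. By this design control tumours are set beside healthy replicate 1 alone and Rbpj-deleted tumours beside healthy replicate 2 alone. That is much like leaving out the other healthy library, so the term is no separate check against healthy brain. The term also moves a change between the tumour groups by the difference of the healthy libraries. For Ms4a4c in T-like cells these held 0 and 2 UMIs. The cause of the other moves was not tested.

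Counts of members called moved as follows, as control, then Rbpj-deleted tumours against healthy brain unless said. The share of all genes called under each alternative is not given. A moved count is therefore not read as a result about the members. In microglia-like cells (2 and 2) they were 1 for control with the batch term, 1 and 1 with mixed barcodes kept and with the higher level, and 0 and 1 without the Il1a-led cluster. For Rbpj-deleted tumours there they were 5 with no filter on low counts and 4 with DESeq2. In border macrophage-like cells (1 and 1) they were 0 and 0 without the Ccl8-led cluster, an alternative chosen after seeing the data. For control tumours there they were 2 with library size alone, 4 with no filter, 2 with mixed barcodes kept and 3 with only the compared groups fitted. In monocyte-derived macrophage-like cells (0 and 0) they were 1 and 3 with no filter, and 1 for Rbpj-deleted tumours with DESeq2. In dendritic-like cells (3 and 0) they were 5 and 1 with no filter, 1 for control with only the compared groups, and 1 for Rbpj-deleted tumours with at least 20 cells a library. Between the tumour groups there (1) they were 2 with no filter and 0 with the batch term, mixed barcodes kept or the higher level. In T-like cells (0 and 0) they were 2 and 1 with no filter, 2 and 1 with DESeq2, and for Rbpj-deleted tumours 2 with mixed barcodes kept, 1 with the higher level and 1 with only the compared groups. Between the tumour groups there (0) they were 2 with no filter and 1 with the higher level. In B-like cells (0) the count was 1 with the batch term.

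With each library left out in turn the counts ranged from 1 to 2, 2 to 7 and, between tumour groups, 0 to 2 in microglia-like cells, 1 to 3, 1 to 2 and 0 to 0 in border macrophage-like cells, 0 to 0, 0 to 2 and 0 to 1 in monocyte-derived macrophage-like cells, 1 to 4, 0 to 1 and 0 to 1 in dendritic-like cells, and 0 to 3, 0 to 1 and 0 to 3 in T-like cells. They were 0 to 0 in NK-like cells, 0 to 2 in B-like cells and 0 to 0 for each difference between classes. A lone library left in a group was assumed to vary like the others. The share of all genes called in these fits is not given either, so nothing is read from the ranges. At least 20 cells a library gave no value for healthy monocyte-derived macrophage-like, control dendritic-like and Rbpj-deleted B-like cells.

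Replicate numbers did not pair the libraries: the deviations of same-numbered libraries correlated at -0.31 to 0.164. With the replicate number as a block, the count in dendritic-like cells was 1 for control against healthy brain and 0 between the tumour groups, and the other counts were within 1.5 times. Scaling by library size alone shifted the median of all genes by -0.262 to 0.083 on the log2 scale. With 2 libraries a group, and 10 to 75 UMIs behind Ms4a4b in microglia-like cells, low members are limited by depth, and Ms4a1 could be tested in B-like cells alone.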
